A study of Oryza sativa with 2 samples.

Results

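Polycomb repressive complex 2 (PRC2) genes of rice were read in young panicles of the lf2 mutant and of the line XD1B. The rule takes genes by locus identifier, and the set was proposed with earlier results of these data known. It holds the 6 genes CLF, EZ1, EMF2a, EMF2b, FIE1 and FIE2, of 57446 genes listed. The lf2 group is a mutant of LATERAL FLORET 2, described in the series title as a chromatin remodelling factor of the SNF2 type. The XD1B group is the wild type. Both are inflorescences shorter than 2 cm, with 1 library each. The sources used here do not say how many panicles or plants went into a library, or which lesion lf2 carries. With no replicates, no difference was tested, and every interval below covers counting error only.

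PRC2 places a methyl mark on histone H3 that keeps genes silent through cell divisions. In plants its core holds a methyltransferase of the Enhancer of zeste type (CLF or EZ1 here), a zinc finger subunit (EMF2a or EMF2b) and the WD40 proteins FIE and MSI1. In grasses the complex is best known for timing flowering, for keeping floral genes off outside the flower, and for holding back endosperm growth before fertilisation.

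Levels are given in FPKM, fragments per kilobase of gene length, scaled to the library total, which lets genes be compared with each other within a library. The lf2 library held 27373727 fragments and the XD1B library 29111345, both recovered from the deposited values. The panicle label was checked against 6 markers, among them the meristem gene OSH1 and the floral gene MADS1. They ranged over 11.4 to 149 FPKM in lf2 and 40.3 to 225 FPKM in XD1B, none of them near 0. The 4 leaf markers were not near 0 either, at 2.63 to 32.6 FPKM in lf2 and 7.66 to 50.0 FPKM in XD1B. Such levels alone therefore do not set panicle apart from leaf. A gene was measured where it reached FPKM 1 in either library, which held for 22150 genes. Their median log2((lf2 FPKM + 1)/(XD1B FPKM + 1)) was -0.31, and 65.2% of them lay below 0. Over genes that reached FPKM 5 in each of the libraries, the median lf2 to XD1B ratio was 0.760. Multiplying all lf2 values by 1.32 sets that median to 1, and each log2 ratio below is also given on this rescaled basis where its sign changes.

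The lf2 library held less CLF and EMF2a transcript than the XD1B library, at a little over 50% of the XD1B level, while for EZ1 the counting interval of the ratio included 1. EMF2b and FIE2 lay in between. FIE1 gave at least 1 fragment in lf2 and 0 in XD1B. Of the 6 genes, 5 were measured. On the log2 scale with a pseudocount of 1, 4 of these were below 0 and 1 was above. The interval of the ratio lay below 1 for the same 4, against 54.9% of all measured genes, and above 1 for 0 of 5, against 28.1%. No member (0 of 5) was at least 2-fold higher, against 15.3% of measured genes, and none (0 of 5) at least 2-fold lower, against 8.23%. Rescaling turns the split over all measured genes from 3395 higher and 1822 lower into 4322 higher and 389 lower, with 0 of 5 members in either. The median log2 ratio of the 5 was -0.42, against -0.31 for all measured genes, and -0.02 after rescaling, against 0.04 for all. Fewer cells of a type in a panicle and less RNA per cell cannot be told apart in such samples.

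**Figure D1:**
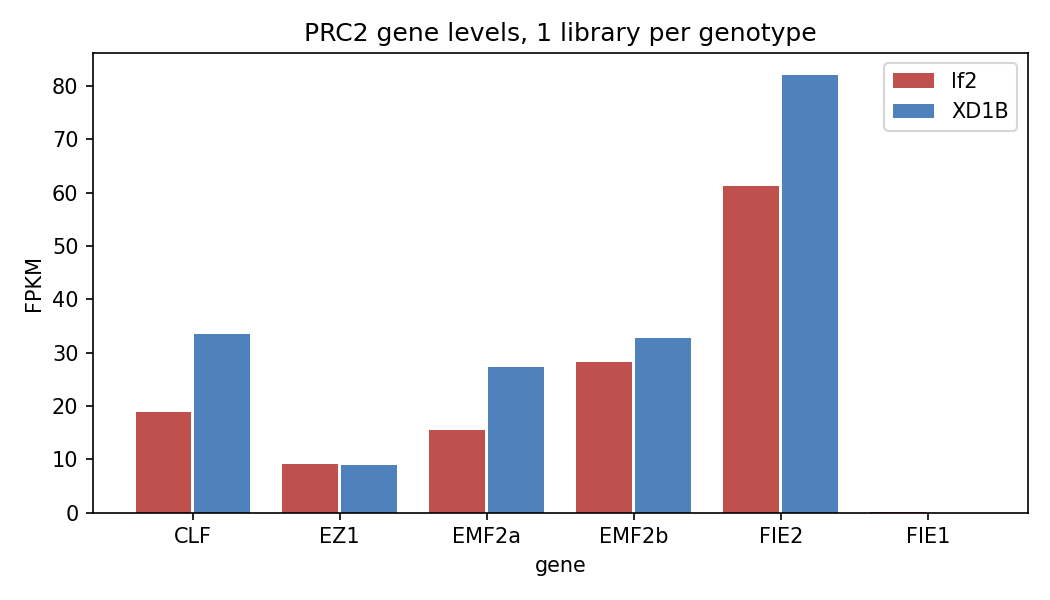
Level of each PRC2 gene in FPKM (vertical axis, linear, from 0) in the single lf2 library (red) and the single XD1B library (blue), with no error bars because there are no replicates. CLF and EMF2a are lower in lf2, EZ1 is at 9.11 FPKM in lf2 and 8.84 FPKM in XD1B, and FIE1 shows no bar in either library.

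The methyltransferase genes CLF and EZ1 differed from each other in how they compared between the libraries. CLF (LOC_Os06g16390, chromosome 6), which in rice is known for delaying flowering under long days, was at 18.8 FPKM in lf2 and 33.5 FPKM in XD1B. The ratio was 0.562 (0.517 to 0.612), from at least 845 fragments in lf2 and 1598 in XD1B. Its log2 ratio of -0.80 was lower than that of all but 16.9% of measured genes, and it stayed below 0, at -0.42, after rescaling. EZ1 (LOC_Os03g19480, chromosome 3), known in rice for a part in flowering under short days, was at 9.11 FPKM in lf2 and 8.84 FPKM in XD1B. This ratio was 1.03 (0.935 to 1.13), with 1 inside the interval, from at least 832 and 859 fragments. Because most genes were lower in the lf2 library, EZ1 still ranked above 66.6% of measured genes, and its log2 ratio was 0.04 as deposited and 0.40 after rescaling.

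The balance between the pair therefore differed between the libraries. EZ1 made up 32.6% (30.5 to 34.7) of their summed FPKM in lf2 and 20.9% (19.5 to 22.3) in XD1B. The EZ1 to CLF ratio was 0.483 in lf2 and 0.264 in XD1B, and so 1.83 times as high in lf2 (1.61 to 2.08). This comparison is made inside each library, so no rescaling of a library changes it. CLF remained the more abundant methyltransferase transcript in both panicles. Together the pair came to 27.95 FPKM in lf2 and 42.4 FPKM in XD1B.

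The zinc finger subunit genes showed an unequal difference as well. EMF2a (LOC_Os04g08034, chromosome 4) was at 15.5 FPKM in lf2 and 27.4 FPKM in XD1B. Its ratio was 0.566 (0.524 to 0.611), close to that of CLF, and its log2 ratio was -0.78 as deposited and -0.41 after rescaling. EMF2b (LOC_Os09g13630, chromosome 9), whose loss in rice disturbs flowering time and floral organs, was at 28.2 FPKM in lf2 and 32.7 FPKM in XD1B. Its ratio was 0.863 (0.790 to 0.942), but the log2 ratio turned from -0.21 to 0.18 on rescaling, so its direction depends on the scaling.

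EMF2a made up 35.4% (33.4 to 37.5) of the summed FPKM of the EMF2 genes in lf2 and 45.6% (43.8 to 47.4) in XD1B. The EMF2a to EMF2b ratio was 0.549 in lf2 and 0.838 in XD1B, and so 0.655 times as high in lf2 (0.583 to 0.737). EMF2b was the more abundant of the pair in both panicles, by a wider margin in lf2. Their sum was 43.7 FPKM in lf2 and 60.01 FPKM in XD1B.

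**Figure D2:**
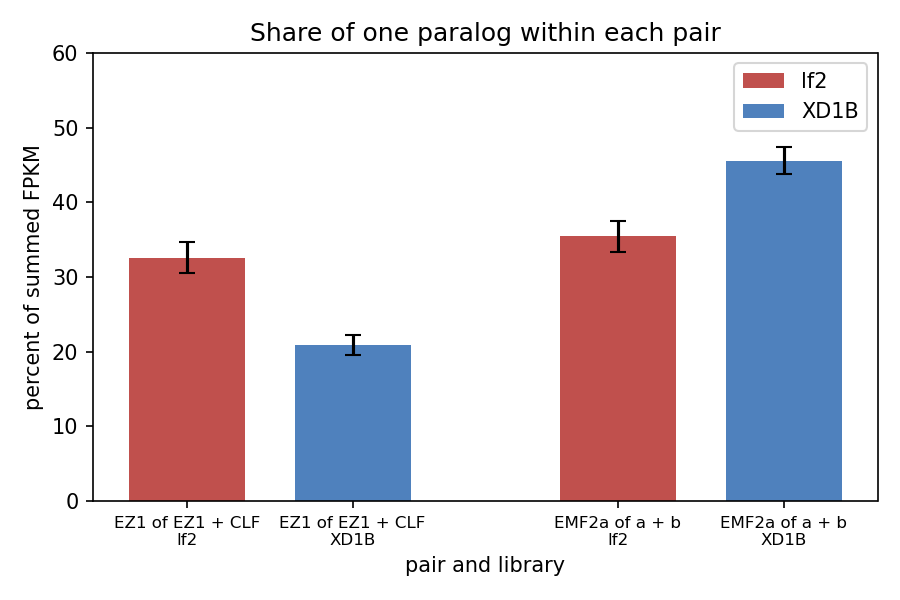
Share of 1 paralog in the summed FPKM of its pair, in percent (vertical axis, from 0), in the lf2 library (red) and the XD1B library (blue); error bars are exact 95% intervals for counting error only. The EZ1 share was 32.6% in lf2 and 20.9% in XD1B, and the EMF2a share was 35.4% in lf2 and 45.6% in XD1B, with no overlap of the error bars within a pair.

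FIE2 and FIE1 encode the WD40 subunit named FIE. FIE2 (LOC_Os08g04270, chromosome 8), the broadly expressed copy, had the highest level of the 6 genes, at 61.3 FPKM in lf2 and 82.1 FPKM in XD1B. It stood above 90.6% of genes with at least FPKM 1 in lf2 and above 93.1% of those in XD1B. The ratio was 0.747 (0.701 to 0.796), next to the median gene's 0.760, and the log2 ratio was -0.42 as deposited and -0.02 after rescaling.

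FIE1 (LOC_Os08g04290, chromosome 8) is an imprinted gene known for expression in endosperm from the maternal copy. It was at 0.0209 FPKM in lf2, which is at least 1 fragment, and listed at 0 in XD1B. A count of 0 allows up to 3 fragments, or 0.0590 FPKM for this gene in XD1B, so the libraries cannot be told apart at this depth and no fold is given. Within lf2, FIE2 was 2934 times as high as FIE1, with a counting interval of 526 to 115965 that shows how little so few fragments fix. In XD1B, FIE2 was at least 1393-fold higher than a FIE1 level of 3 fragments.

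Endosperm, the tissue of FIE1, is not a labelled part of these panicles. Of 6 endosperm markers, 3 were under FPKM 1 in both libraries, and 1 of these was at 0 in both. Of all 57446 genes listed, 22150 reached FPKM 1 in either library and 32350 were above 0 in either. For the 3 measured markers, the interval of the ratio lay above 1 for 2, against 28.1% of measured genes. It lay below 1 for 1, against 54.9%. The summed FPKM of the 6 markers was 35.8 in lf2 and 6.75 in XD1B. Most of the lf2 sum came from 1 marker, at 32.1 FPKM in lf2 and 0.555 FPKM in XD1B. The starch synthase gene Wx was at 0.0311 FPKM in lf2 and 0.0292 FPKM in XD1B, 1 fragment or more each, and the storage protein gene GluA2 was at 2.22 FPKM in lf2 and 4.91 FPKM in XD1B. The part of any such tissue in the FIE1 values was not tested.

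The order of the 6 levels was nearly the same in both panicles. In lf2 it ran FIE2, EMF2b, CLF, EMF2a, EZ1 and FIE1. There, EMF2b was 1.495 times as high as CLF (1.36 to 1.64) and CLF 1.22 times as high as EMF2a (1.11 to 1.34). In XD1B the order ran FIE2, CLF, EMF2b, EMF2a, EZ1 and FIE1. CLF and EMF2b did not differ there beyond counting error, with a ratio of 1.03 (0.951 to 1.11). All other neighbours in the order differed beyond counting error down to EZ1, which was the lowest measured gene in both libraries. Between libraries, EMF2b and CLF changed places.

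Seen by subunit, summed levels of the core genes were lower in lf2 by similar proportions. EZ1 by itself was not, with a ratio of 1.03 (0.935 to 1.13). Over genes that reached FPKM 5 in each of the libraries, the median ratio was 0.760. Summed FPKM in lf2 over that in XD1B was 0.660 for the methyltransferases, 0.727 for the zinc finger subunits and 0.747 for FIE. MSI1 (LOC_Os03g43890), the other WD40 subunit, which binds histones and is shared with chromatin assembly, was at 47.4 FPKM in lf2 and 70.3 FPKM in XD1B, a ratio of 0.674 (0.639 to 0.710). Ratios within the CLF and EZ1 pair, and within the EMF2 pair, lay further apart than the ratios of the subunits did. The log2 ratios of the subunits after rescaling spanned only -0.20 to -0.02. A summed ratio always lies between those of its genes, so a narrower span of sums is partly built in. The sums carry no intervals, and this contrast was not tested.

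**Figure D3:**
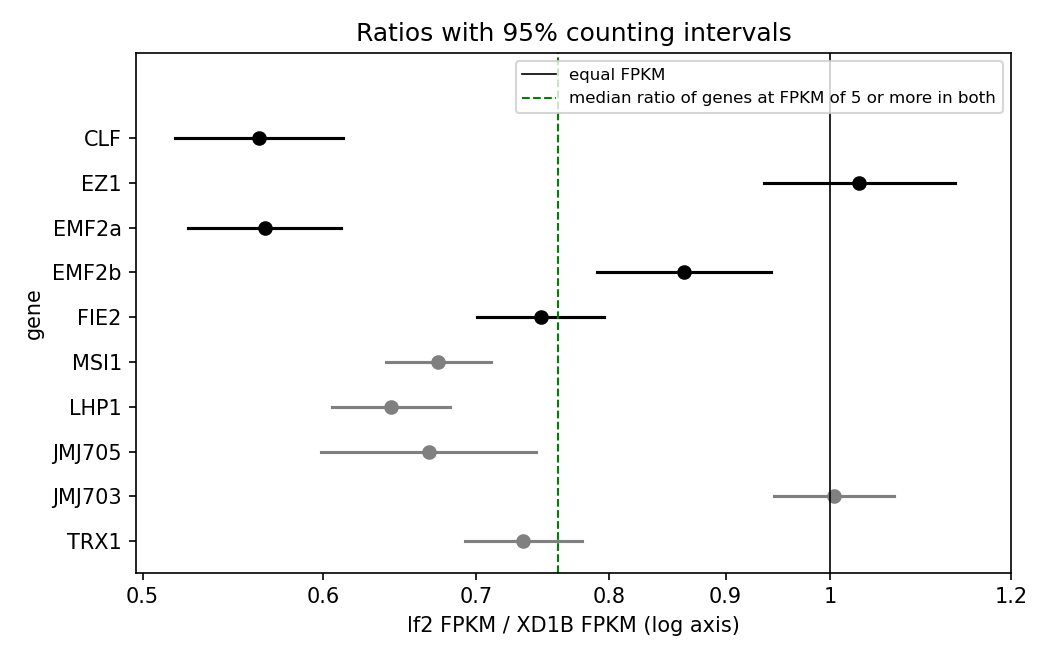
Ratio of lf2 FPKM to XD1B FPKM (horizontal log axis) for the 5 measured PRC2 members (black) and for related genes whose names could be checked (grey); bars are exact 95% counting intervals, the solid line marks equal FPKM and the dashed line the median ratio of 0.760. CLF and EMF2a lie left of the dashed line, EZ1 and EMF2b right of it, and the bar of FIE2 crosses it.

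Among 4 partner genes of the complex, all 4 were measured and all 4 had a log2 ratio below 0, against 65.2% of measured genes. The interval of the ratio lay below 1 for 3 of the 4 partners, against 54.9% of measured genes. None of the partners (0 of 4) was 2-fold higher or lower on the log2 scale, against 15.3% and 8.23% of measured genes. Their median of -0.37 became 0.02 after rescaling, with 2 above 0 and 2 below. LHP1 (LOC_Os10g17770), whose Arabidopsis counterpart binds the PRC2 mark, was at 36.6 FPKM in lf2 and 56.97 FPKM in XD1B. Its ratio was 0.642 (0.605 to 0.682), and its log2 ratio of -0.62 stayed below 0, at -0.24, after rescaling.

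Enzymes that remove the PRC2 mark, or that handle marks of active chromatin, were compared as a group of 5, all measured. Of these, 2 were above 0 and 3 below, where 65.2% of measured genes were below. None (0 of 5) was 2-fold higher or lower, against 15.3% and 8.23% of measured genes. The interval of the ratio lay below 1 for 3, against 54.9% of measured genes, and above 1 for 1, against 28.1%. The median log2 ratio was -0.43, against -0.31 for all measured genes, and -0.05 after rescaling, against 0.04 for all. JMJ705 (LOC_Os01g67970), a demethylase of the PRC2 mark, was at 4.70 FPKM in lf2 and 7.05 FPKM in XD1B, a ratio of 0.667 (0.598 to 0.743). JMJ703 (LOC_Os05g10770), a demethylase of an activating H3 mark, was at 17.5 FPKM in both libraries, a ratio of 1.004 (0.945 to 1.07). TRX1 (LOC_Os09g04890), a methyltransferase of the trithorax type, was at 19.2 FPKM in lf2 and 26.1 FPKM in XD1B, a ratio of 0.734 (0.692 to 0.778). After rescaling, the log2 ratios were -0.16 for JMJ705, 0.38 for JMJ703 and -0.05 for TRX1.

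Flowering genes known to act downstream of rice PRC2 were mostly under FPKM 1 in these panicles. Of 8, 3 were measured, against 22150 of all 57446 genes listed, a similar share, so this is not particular to these genes. A further 3 were listed at 0 in both libraries, among them the florigen gene Hd3a, which is expressed in leaves. Of the 57446 genes, 32350 were above 0 in either library. Of the 3 that passed the FPKM minimum, 1 was at least 2-fold lower on the log2 scale with a pseudocount of 1, against 8.23% of measured genes. On that scale 0 were at least 2-fold higher, against 15.3%. After rescaling, 0 of the 3 were 2-fold lower, against 389 of the 22150 measured genes. Their median was -0.87, against -0.31 for all measured genes, and -0.65 after rescaling, against 0.04 for all. LFL1 (LOC_Os01g51610), a B3-domain repressor of flowering and a known target of EMF2b, was at 1.17 FPKM in lf2 and 2.98 FPKM in XD1B. Its ratio was 0.393 (0.276 to 0.551), from at least 48 and 130 fragments, while with the pseudocount its log2 ratio was -0.87. The gene past 2-fold with the pseudocount was MADS4 (LOC_Os05g34940), a floral organ gene of the B class, at 6.56 FPKM in lf2 and 15.3 FPKM in XD1B, a ratio of 0.429 (0.371 to 0.494). Its log2 ratio was -1.11 as deposited and -0.76, short of 2-fold, after rescaling. MADS34 (LOC_Os03g54170), which shapes the panicle and sterile lemmas, was at 83.4 FPKM in lf2 and 87.4 FPKM in XD1B, a ratio of 0.954 (0.907 to 1.003), and its log2 ratio turned from -0.07 to 0.32 on rescaling.

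**Figure D4:**
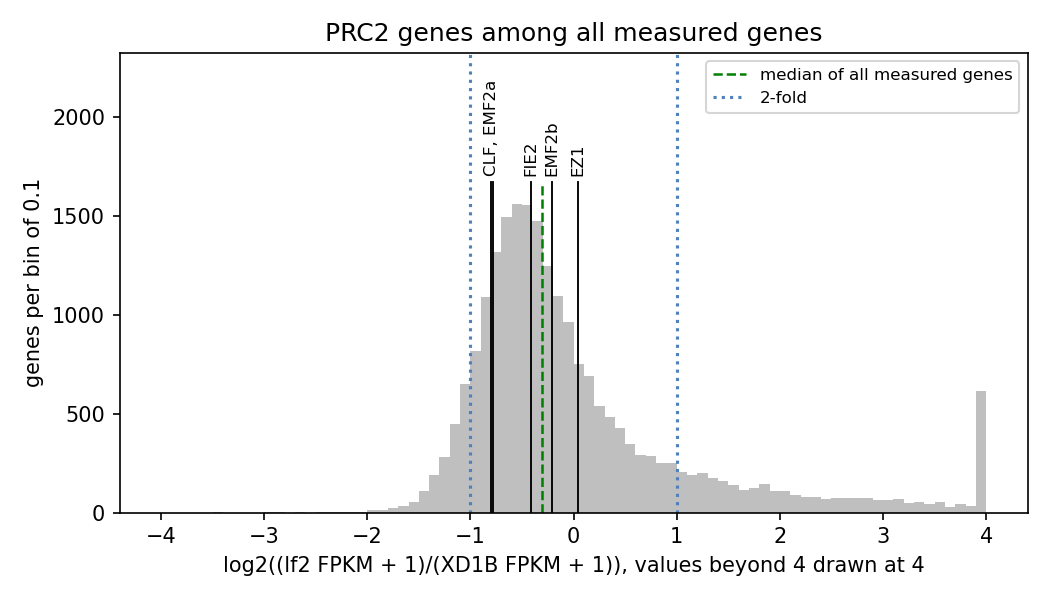
Number of genes (vertical axis, per bin of 0.1) by log2((lf2 FPKM + 1)/(XD1B FPKM + 1)) (horizontal axis, values beyond the axis drawn at its end) for the 22150 measured genes, with black lines at the 5 measured PRC2 members, a dashed line at the median of -0.31 and dotted lines at 2-fold. All 5 members lie between the dotted lines, with CLF and EMF2a on the left flank at -0.80 and -0.78 and EZ1 at 0.04.

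The loci next to the members gave a view of their surroundings on the chromosome. There were 11 nearest listed loci, of which 6 were measured. All 6 had a log2 ratio below 0, against 65.2% of measured genes. On the log2 scale with a pseudocount of 1, 0 of the 6 reached 2-fold, against 15.3% of measured genes higher and 8.23% lower. After rescaling, 2 of the 6 were above 0, where the median of all measured genes was 0.04. LOC_Os08g04280, which lies between FIE2 and FIE1, was at 44.8 FPKM in lf2 and 76.5 FPKM in XD1B, a ratio of 0.586 (0.558 to 0.615). The near-zero level of FIE1 was therefore not shared by the locus beside it. LOC_Os08g04300, on the other side of FIE1, was at 1.195 FPKM in lf2 and 2.15 FPKM in XD1B.

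Next to CLF, LOC_Os06g16400 was at 14.1 FPKM in lf2 and 23.9 FPKM in XD1B, a ratio of 0.589 (0.542 to 0.639), and LOC_Os06g16380 was at 0 in lf2 and 0.0711 FPKM in XD1B. The flowering gene Hd1 (LOC_Os06g16370), the next locus beyond, was at 0.621 FPKM in lf2 and 0.250 FPKM in XD1B, below the FPKM minimum in both. Beside EZ1, LOC_Os03g19470 was at 6.12 FPKM in lf2 and 12.7 FPKM in XD1B, a ratio of 0.484 (0.423 to 0.551), and a log2 ratio of -0.94 with the pseudocount. On its other side, LOC_Os03g19490 was at 1.75 FPKM in lf2 and 2.09 FPKM in XD1B, a ratio of 0.837 (0.592 to 1.18) with 1 inside the interval, and its log2 ratio turned from -0.17 to 0.10 on rescaling. Beside EMF2b, LOC_Os09g13610 was at 38.1 FPKM in lf2 and 40.9 FPKM in XD1B, a ratio of 0.931 (0.884 to 0.980), and its log2 ratio turned from -0.10 to 0.29 on rescaling. LOC_Os09g13640, on the other side of EMF2b, and LOC_Os08g04260, on the other side of FIE2, were at 0 in both libraries. Both listed neighbours of EMF2a, LOC_Os04g08010 and LOC_Os04g08060, were under FPKM 1 in both libraries.

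Other gene groups differed between the same libraries, and their part in the PRC2 values was not tested. All 7 DNA replication genes, which mark dividing cells, were at least 2-fold lower in lf2, against 8.23% of measured genes. Their summed FPKM was 240 in lf2 and 614 in XD1B, with log2 ratios of -1.44 to -1.11. After rescaling, 2 of the 7 were at least 2-fold lower, against 389 of the 22150 measured genes. All 6 stress and defence genes were at least 2-fold higher, against 15.3% of measured genes. Their summed FPKM was 5704 in lf2 and 6.87 in XD1B, most of it from the lectin gene SALT. The 4 leaf markers, none of them near 0, had a summed 63.4 FPKM in lf2 and 112 FPKM in XD1B. The interval of the ratio lay below 1 for 3 of the 4, against 54.9% of measured genes, and 1 log2 ratio turned above 0 on rescaling. The 6 panicle markers had a summed 384 FPKM in lf2 and 688 FPKM in XD1B, with a median log2 ratio of -0.98. All 6 log2 ratios were below 0, against 65.2% of measured genes, and 3 were at least 2-fold lower, against 8.23%. After rescaling, 2 of the 6 were at least 2-fold lower, against 389 of the 22150 measured genes, and 1 was above 0. The measured PRC2 members had log2 ratios of -0.80 to 0.04. All lay above the replication genes and below the stress genes, whose lowest log2 ratio was 3.38. Both of these lists were chosen with earlier results of these data known. The lower and upper quartiles of all measured genes, -0.67 and 0.34, also lay between them, so this position is not particular to PRC2 genes.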

How the data were processed

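The values used, from 1 library each of lf2 and XD1B panicles, are FPKM per gene as the authors deposited them, a unit named in the file's own name. The sources used here name no aligner, counting tool, annotation, genome build or strand setting, so reads shared between paralogs or with an antisense gene cannot be judged. They do not give the locus of LF2, whose level was not analysed here. No sequences were at hand.

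An FPKM value equals a fragment number over gene length and library total, all whole numbers. The totals printed are those under which 100% of the 32350 genes above 0 gave whole fragments within 2e-06 fragments plus 2e-09 of the number. Fragments are lower bounds, since a factor common to the length and both libraries cannot be seen; they sum to 89.4% of the total in lf2 and 89.7% in XD1B. Intervals are exact Clopper-Pearson 95% intervals (conditional odds ratio for ratios of ratios) and cover counting error only. They are computed from these lower bounds, so they are too wide for a gene whose true fragment numbers are larger. The recovery was also run on simulated data, built from the recovered fragments and lengths with the same formula. Such a run cannot show that the deposited values follow that formula.

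The log2 ratio carries a pseudocount of 1, which understates differences of low genes; plain ratios carry none. A log2 ratio of at least 1 or at most -1 counted as 2-fold, a rule of size. No p-value was computed. Members and the other 8 lists were chosen with earlier results of these data known. Named genes are all members, the nearest listed locus on each side, and list genes whose symbol matched the RefSeq table of assembly ASM3414082v1 on the same chromosome and in the same order (33 of 46, of which 1 on the chromosome alone; 13 had no entry and are counted but not named). A further list gene is not reported here. Lists with over 6 such genes were to name only their extremes, and the lists of markers, replication and stress genes are summarised instead. Of the members, EZ1 matched and the other 5 had no entry. Alternatives were pseudocounts of 0.1 and 5, no filter, a filter at FPKM 5, rescaling to a median ratio of 1 or to a sum of 1000000, and Wilson intervals. Software was Python 3.11.15 with scipy 1.17.1, numpy 2.4.6, matplotlib 3.10.9 and pandas 2.3.3 (random seed 1).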

Additional observations from a re-analysis of the deposited data

How the results depend on the processing

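All alternatives were planned ones. No paired analysis was possible because each group has 1 library and the labels give no replicate numbers, and no replicate could be left out. Rescaling to a median ratio of 1, which multiplies every lf2 value, moved all 5 measured members, to log2 ratios of -0.42 for CLF, -0.41 for EMF2a, -0.025 for FIE2, 0.18 for EMF2b and 0.40 for EZ1, and their median to -0.025; only EMF2b changed sign. It also moved the medians of the partners to 0.017 and of the mark-removing and active-chromatin enzymes to -0.049. With a pseudocount of 5, which shrinks low genes, EMF2a stood at -0.66, the latter enzymes at -0.31 and the flowering genes at -0.37. Without a filter, unmeasured genes enter, and the medians were -0.31 for 6 members and 0 for 8 flowering genes. Genes at least 2-fold lower numbered 1822 as reported, 2978 with a pseudocount of 0.1, 648 with 5 and 389 on rescaling to a median ratio of 1; those at least 2-fold higher numbered 3395 as reported, 2183 with a pseudocount of 5 and 4322 on that rescaling. Of the 12 related genes measured, rescaling to a median ratio of 1 moved 11 beyond their counting interval and a pseudocount of 5 moved 3; a sum of 1000000 moved 0. Wilson intervals change only the bounds of the paralog shares, such as 19.5 to 22.3 for EZ1 in XD1B. Depth limits FIE1, at 0 fragments in XD1B and at least 1 in lf2.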
